A study of Mus musculus with 6 samples.

Results

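The guanylate-binding proteins (GBPs) and the immunity-related GTPases (IRGs) are GTP-hydrolysing proteins that cells make when interferon reaches them. The 10 genes described here are 5 GBP genes, Gbp2, Gbp3, Gbp4, Gbp6 and Gbp7, and 5 IRG genes, Iigp1, Igtp, Irgm1, Irgm2 and Ifi47. They were chosen by name, with earlier results of these data known, out of 55401 genes in the count files. All 10 had enough counts to be tested. Bulk RNA-seq was performed on 6 samples of dorsal hippocampus from WT mice, the littermates of Ts65Dn mice on a mixed B6EiC3 background, at an age of 4 months. Of these, 3 samples came from mice injected with Control-ASO, an antisense oligonucleotide of scrambled sequence, and 3 from mice injected with Snhg11-ASO, which targets the lncRNA Snhg11. Both were delivered into the dentate gyrus at 50 μg per hemisphere, and the dorsal hippocampus was collected 3 days later. Every mouse thus carried an oligonucleotide, and each group received a single sequence, so the loss of Snhg11 and any other effect of its oligonucleotide cannot be told apart.

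Both families act inside the cell. GBPs are large GTPases that assemble on membranes around intracellular bacteria and parasites, and IRGs are smaller GTPases that load onto the vacuole in which such a pathogen lives. Iigp1 and Ifi47 are effector IRGs, whereas Irgm1, Irgm2 and Igtp (also called Irgm3) are regulatory IRGs that keep the effectors off the cell's own membranes. Transcription of these genes is driven mainly by interferon-gamma, through the GAS element and through IRF1, which binds the interferon-stimulated response element (ISRE). Type I interferon also reaches the ISRE, through a complex that holds STAT2 and IRF9. In the brain, microglia, astrocytes, neurons and endothelial cells can all make these proteins.

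The start sites of these genes were inspected for both elements. RefSeq promoter windows on GRCm38.p6 hold the 250 bases before and the first 50 bases of a transcript. Windows matched by symbol were read for 7 members, in 8 windows. These members were Gbp2, Gbp3, Gbp7, Igtp, Irgm1, Irgm2 and Ifi47. A core ISRE (GAAA, any 2 bases and GAAA again, on both strands) was found in 6 of the 7, all but Ifi47, and its first base lay between 24 and 64 bases before the start. Of all 32851 windows, 3.44% held it. A GAS core (TTCNNNGAA, which reads the same on both strands) was found in Gbp7, Igtp and Irgm2, against 8.30% of all windows. The GAS and ISRE matches did not overlap each other. Windows of Gbp4, Gbp6 and Iigp1 were not analysed here. A match is a description of letters and not of a bound factor. The 30-base stretches around the matches are shown 5′ to 3′ along the gene, with the matched letters in capitals. They are shown because 6 of the 7 members read hold an ISRE, and because Igtp and Irgm2, neighbours on chromosome 11, have nearly the same stretch.
Gbp2, ISRE, chr3:142620594-142620623, plus strand: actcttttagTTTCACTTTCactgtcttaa
Gbp3, overlapping ISREs, chr3:142559992-142560021, plus strand: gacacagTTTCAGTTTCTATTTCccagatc
Gbp7, ISRE, chr3:142530273-142530302, plus strand: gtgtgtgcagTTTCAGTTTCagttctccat
Gbp7, GAS matches upstream, chr3:142530229-142530258, plus strand: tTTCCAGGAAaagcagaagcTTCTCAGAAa
Irgm1, overlapping ISREs, chr11:48871428-48871457, minus strand: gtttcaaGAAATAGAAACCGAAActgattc
Igtp, GAS and ISRE, chr11:58199507-58199536, plus strand: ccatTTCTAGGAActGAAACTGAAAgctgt
Irgm2, GAS and ISRE, chr11:58214898-58214927, plus strand: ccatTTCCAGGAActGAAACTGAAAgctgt
The Igtp and Irgm2 stretches differed at 1 of 30 bases, T8C, counted from 1 at the 5′ end with the base of Igtp first. That base lies inside the GAS match, at a letter that the search left free.

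The libraries held 28951250 to 43997537 counts on genes, and Snhg11 was lower in every Snhg11-ASO sample, with 551, 436 and 209 CPM (counts scaled to the library total, with TMM factors) in Control-ASO against 139, 65.4 and 69.4 CPM in Snhg11-ASO. Snhg11-ASO replicate 1 stood apart from the other samples. Its Spearman correlation across genes with the other samples of its group was 0.958 and 0.959, while those samples correlated with each other at 0.991. The study's methods remove an outlying Snhg11-ASO sample that its text does not name, so all samples were kept here and the main results are also given without replicate 1. Control-ASO replicate 1 was the lowest sample of its group for 9 of the 10 GTPase genes, so values without it are given as well. The edgeR and DESeq2 p-values set the group difference against the spread between these samples, which both estimate partly from all genes. In bulk tissue, fewer cells of a type and less RNA per cell cannot be told apart.

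Most of the GTPase genes were higher in the Snhg11-ASO samples. All 10 fold changes pointed upward, that of Gbp4 only barely and not in every alternative fit, with a median log2 fold change of 1.35, against 0.01 over all 19969 genes tested. In 8 of the 10, every Snhg11-ASO sample lay above every Control-ASO sample, which was the case for 7.73% of all genes. The same 8 genes, Gbp2, Gbp3, Gbp6, Gbp7, Iigp1, Igtp, Irgm1 and Irgm2, reached p under 0.05 without adjustment in the quasi-likelihood test of edgeR, as did 3.68% of all genes in the upward direction. With Benjamini-Hochberg adjustment over all genes, edgeR called 0 of the 10 members, with adjusted p-values from 0.460 to 0.971, and 0% of all genes. DESeq2, on the same counts, called 5 members, namely Gbp2, Gbp7, Iigp1, Igtp and Irgm1. Of the 15262 genes to which DESeq2 gave an adjusted p, 0.609% were called upward. Without Snhg11-ASO replicate 1 the median was 1.14. The same 8 genes then had an unadjusted p under 0.05 in edgeR (4.41% of all genes upward). DESeq2 called the same 5, among 339 genes called in either direction. Without Control-ASO replicate 1 the median was 0.99, and 6 of the 8 had an unadjusted p under 0.05 (1.77% of all genes upward). DESeq2 then called 3, among 92 genes called in either direction. Of these 3, Gbp7 and Irgm1 were among the 5 and Gbp3 was not. For DESeq2 with a sample left out, the share over all genes was not computed. Without replicate 1 of both groups the median was 0.88 and 7 of the 8 reached an unadjusted p under 0.05, beside 4.12% of all genes upward.

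**Figure D1:**
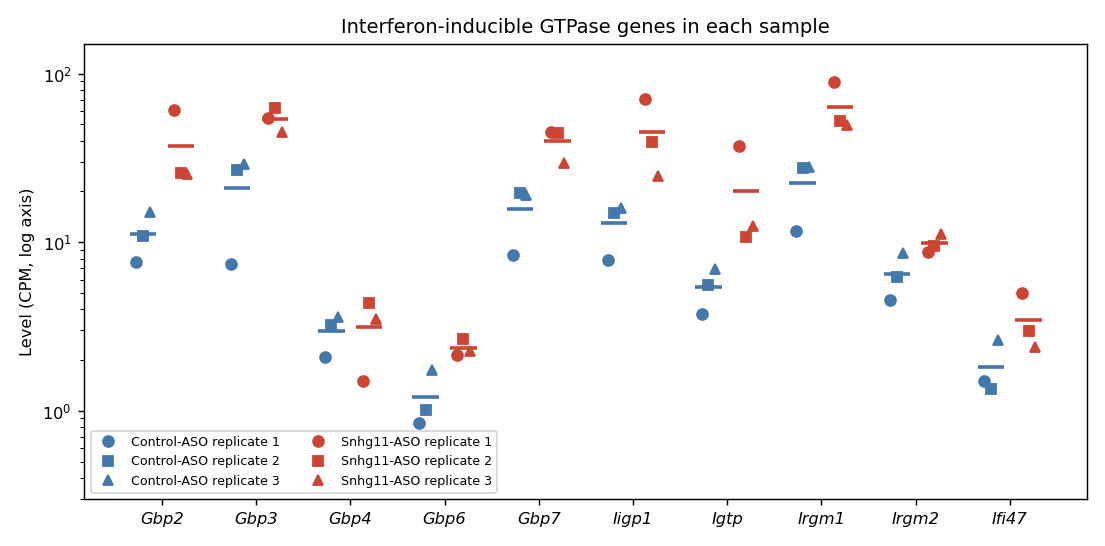
Level of each GTPase gene in CPM on a log axis, with a point for each sample (blue Control-ASO, red Snhg11-ASO, marker shape the replicate) and a line at each group mean. The red points lie above the blue points for every gene except Gbp4 and Ifi47, and Snhg11-ASO replicate 1 is highest for Gbp2, Gbp7, Iigp1, Igtp, Irgm1 and Ifi47.

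Among the GBPs, Gbp2, Gbp3 and Gbp7 lie in a cluster on the plus strand of chromosome 3. Gbp2 (ENSMUSG00000028270, chr3:142620602-142638008), a GBP that is lipid-anchored to membranes, had 7.61, 10.9 and 15.1 CPM in Control-ASO (always in the order of replicates 1 to 3) and 60.6, 25.8 and 25.5 CPM in Snhg11-ASO. The groups did not overlap, and Snhg11-ASO replicate 1 was 2.38 times the lowest sample of its group. Mean Gbp2 was 11.2 ± 3.74 against 37.3 ± 20.2 CPM (SD, n = 3 per group), which is 1.73 ± 0.41 (SE) on the log2 scale, with adjusted p-values of 0.460 in edgeR and 0.00242 in DESeq2. Without Snhg11-ASO replicate 1 it was 1.19 ± 0.25 (SE).

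Gbp3 (ENSMUSG00000028268, chr3:142560026-142573209) had 7.41, 26.7 and 29.0 CPM in Control-ASO and 54.5, 62.9 and 45.0 CPM in Snhg11-ASO. The spread for Gbp3 lay in the controls, where the highest sample was 3.91 times the lowest, the widest Control-ASO range of the 10 genes, while the Snhg11-ASO samples lay within 1.40 times of each other. Its log2 fold change was 1.36 ± 0.46 (SE), with adjusted p-values of 0.551 in edgeR and 0.0828 in DESeq2. Without Control-ASO replicate 1 the difference was smaller but tighter, at 0.95 ± 0.17 (SE), and DESeq2 then gave an adjusted p of 0.00233.

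Gbp7 (ENSMUSG00000040253, chr3:142530342-142550149) was counted at 8.40, 19.6 and 19.2 CPM in Control-ASO and at 45.1, 44.5 and 29.3 CPM in Snhg11-ASO. Snhg11-ASO replicates 1 and 2 were nearly equal, so that the result did not rest on the replicate that stood apart. The log2 fold change of Gbp7 was 1.33 ± 0.34 (SE), with adjusted p-values of 0.483 in edgeR and 0.0124 in DESeq2, and it was 1.23 without Snhg11-ASO replicate 1. Of its exonic length, 11.4% is also annotated as the processed pseudogene Gm43802, where reads are assigned to neither gene.

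Gbp4 and Gbp6 lie on the minus strand of chromosome 5 and were scarce. Gbp6 (ENSMUSG00000104713, chr5:105270702-105293698) had 0.850, 1.01 and 1.75 CPM in Control-ASO and 2.15, 2.68 and 2.27 CPM in Snhg11-ASO. Its groups did not overlap, and its log2 fold change was 0.97 ± 0.32 (SE), with adjusted p-values of 0.551 in edgeR and 0.213 in DESeq2. Gbp6 is uncertain as a single gene, since 70.7% of the 50-base windows in its transcripts also occur in another gene, mainly Gm43302 and Gbp10, and pairs aligned to more than one place do not enter the counts. Gbp4 (ENSMUSG00000079363, chr5:105115767-105139586) was the exception among the GBPs, with 2.07, 3.21 and 3.59 CPM in Control-ASO and 1.49, 4.38 and 3.50 CPM in Snhg11-ASO. Snhg11-ASO replicate 1 was the lowest of all 6 samples for Gbp4, although it was the highest for 6 other members. The log2 fold change of Gbp4 was 0.08 ± 0.42 (SE), with an adjusted p of 0.971 in edgeR, and its sign depended on the samples, at 0.41 without Snhg11-ASO replicate 1 but -0.13 without Control-ASO replicate 1.

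Among the IRGs, the effector Iigp1 (ENSMUSG00000054072, chr18:60376027-60392634) was measured at 7.82, 15.0 and 16.1 CPM in Control-ASO and at 70.6, 39.3 and 24.6 CPM in Snhg11-ASO. The Snhg11-ASO samples were spread over 2.86 times, and the lowest of them was above every control. Mean Iigp1 was 12.9 ± 4.48 against 44.9 ± 23.5 CPM (SD, n = 3 per group). The log2 fold change was 1.79 ± 0.43 (SE), with adjusted p-values of 0.464 in edgeR and 0.00252 in DESeq2, and it was 1.30 without Snhg11-ASO replicate 1. Ifi47 (ENSMUSG00000078920, chr11:49076587-49096974), another effector, was scarce, at 1.50, 1.34 and 2.64 CPM in Control-ASO and 5.01, 2.99 and 2.38 CPM in Snhg11-ASO. Its groups overlapped through Control-ASO replicate 3, and the log2 fold change of 0.92 ± 0.39 (SE) missed both thresholds, with an unadjusted p of 0.0508 and an adjusted p of 0.618 in edgeR. It was 0.55 when Snhg11-ASO replicate 1 was left out. Of the Ifi47 exons, 4.49% are shared with the olfactory receptor gene Olfr56.

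Irgm1 (ENSMUSG00000046879, chr11:48861968-48871683), the regulatory IRG on the minus strand, was counted at 11.7, 27.6 and 27.8 CPM in Control-ASO and at 88.8, 52.04 and 49.4 CPM in Snhg11-ASO. The lowest Snhg11-ASO sample was well above the highest control. The log2 fold change of Irgm1 was 1.50 ± 0.38 (SE), with adjusted p-values of 0.476 in edgeR and 0.00753 in DESeq2, and it was 1.18 when replicate 1 of either group was left out. Only 0.379% of its 50-base windows occur in another gene, the lowest share of the 10.

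Igtp and Irgm2 are regulatory IRGs and neighbours on the plus strand of chromosome 11. Igtp (ENSMUSG00000078853, chr11:58199556-58207591) had 3.74, 5.56 and 6.98 CPM in Control-ASO and 37.0, 10.8 and 12.4 CPM in Snhg11-ASO. Igtp had the largest log2 fold change of the 10, 1.89 ± 0.51 (SE), with adjusted p-values of 0.492 in edgeR and 0.0114 in DESeq2. Snhg11-ASO replicate 1 was 3.43 times the lowest sample of its group, and leaving it out gave 1.10 ± 0.25 (SE). Irgm2 (ENSMUSG00000069874, chr11:58199618-58222782) had 4.52, 6.21 and 8.67 CPM in Control-ASO and 8.79, 9.55 and 11.2 CPM in Snhg11-ASO. The Irgm2 groups were separated by 8.67 against 8.79 CPM only, and with plain library totals in place of TMM factors they overlapped. Its log2 fold change was 0.60 ± 0.25 (SE), with an unadjusted p of 0.0489 and an adjusted p of 0.611 in edgeR, and an adjusted p of 0.368 in DESeq2. It was 0.39 when Control-ASO replicate 1 was left out, where the unadjusted p in edgeR was 0.135. The ratio of Igtp to Irgm2 within a sample was 0.827, 0.895 and 0.805 among the controls, against 4.21, 1.13 and 1.11 after Snhg11-ASO. The ratio was higher in every Snhg11-ASO sample (p = 0.1 in an exact two-sided permutation test, which cannot go lower with 3 samples in each group), but in replicates 2 and 3 it lay close to the control range. Annotated exons of Igtp and Irgm2 overlap over 162 bases, where pairs are assigned to neither gene.

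**Figure D2:**
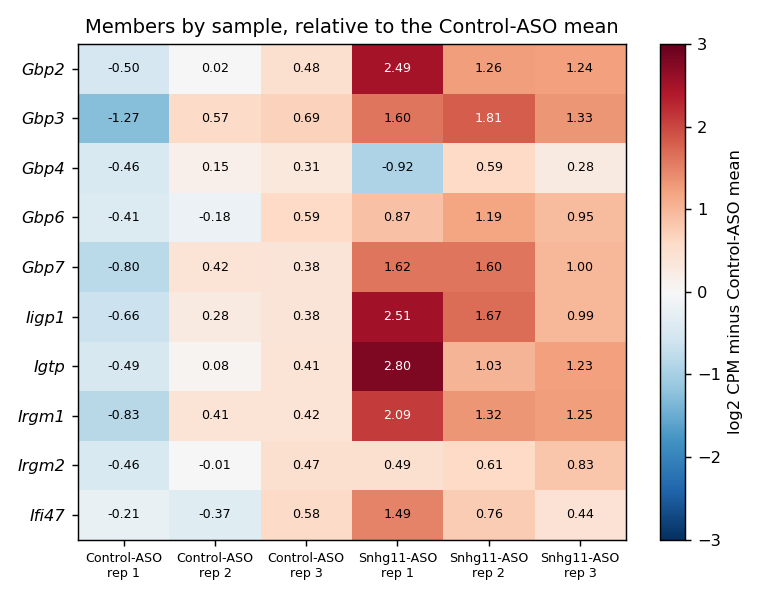
Log2 CPM of each GTPase gene in each sample minus the mean of the 3 Control-ASO samples, red above and blue below that mean, with the values printed. Snhg11-ASO replicate 1 reaches 2.80 for Igtp, 2.51 for Iigp1 and 2.49 for Gbp2 but -0.92 for Gbp4, and Control-ASO replicate 1 is below the control mean for all 10 genes.

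The order of the samples differed from gene to gene. Snhg11-ASO replicate 1 was the highest sample of all for 6 members, Snhg11-ASO replicate 2 for 3 (Gbp3, Gbp4 and Gbp6) and Snhg11-ASO replicate 3 for Irgm2. Control-ASO replicate 1 was the lowest of all 6 samples for 8 members. Relative to the Control-ASO mean, the log2 levels averaged over the 10 genes were -0.61, 0.14 and 0.47 for the controls and 1.50, 1.18 and 0.95 for the Snhg11-ASO samples. The read pairs counted over the 10 genes numbered 1637, 3940 and 4403 for the controls, against 14262, 10656 and 8979 after Snhg11-ASO.

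Set against exonic length, the genes spanned a wide range of levels. In Control-ASO, Gbp3 was the most abundant at 6.44 ± 3.63 CPM per kb (SD, n = 3), followed by Gbp2 (4.45 ± 1.49), Irgm1 (3.86 ± 1.59), Gbp7 (2.80 ± 1.13), Igtp (2.68 ± 0.80), Iigp1 (2.22 ± 0.77) and Irgm2 (1.75 ± 0.57). Within this stretch of the order, neighbours differed by less than the larger of their SDs. Ifi47 was at 0.74 ± 0.29, Gbp4 at 0.39 ± 0.11 and Gbp6 at 0.20 ± 0.08 CPM per kb. In Snhg11-ASO, Gbp3 (16.6 ± 2.75 CPM per kb), Gbp2 (14.8 ± 8.02) and Irgm1 (10.9 ± 3.79) were again the most abundant. Igtp was at 9.93 ± 7.27, Iigp1 at 7.70 ± 4.03, Gbp7 at 7.06 ± 1.59 and Irgm2 at 2.67 ± 0.33 CPM per kb.

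**Figure D3:**
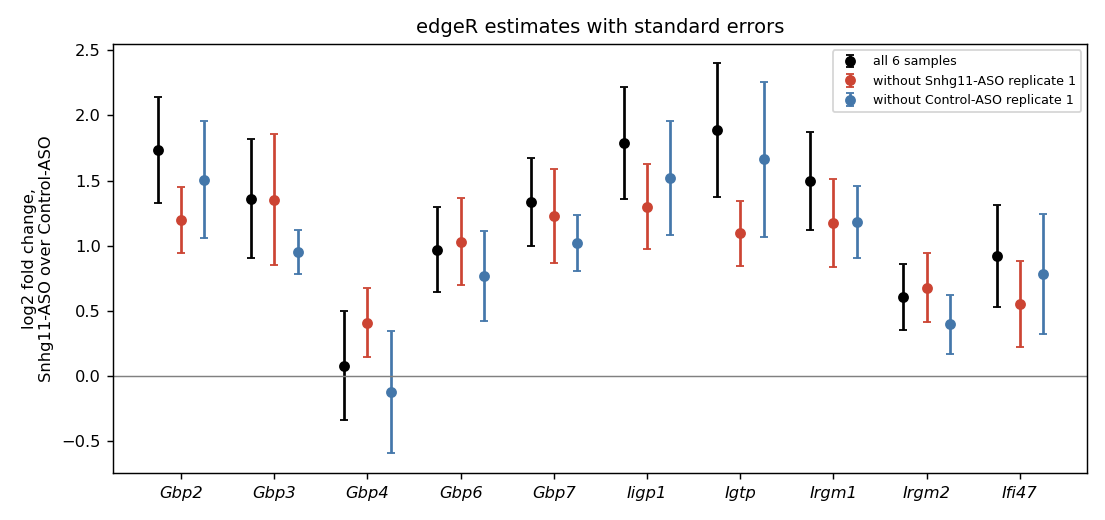
Log2 fold change of Snhg11-ASO over Control-ASO from edgeR with its standard error for each GTPase gene, from all 6 samples (black), with Snhg11-ASO replicate 1 left out (red) or with Control-ASO replicate 1 left out (blue). Igtp moves furthest, from 1.89 to 1.10 without Snhg11-ASO replicate 1, and Gbp4 is the only gene whose estimate crosses 0 among these fits.

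Other large interferon-inducible GTPase genes were read from a list of 20, of which 19 could be tested. Of these, 7 had an unadjusted p under 0.05 in edgeR, all upward, beside 3.68% of all genes upward. In edgeR, 0 had an adjusted p under 0.05. DESeq2 called 2, F830016B08Rik (adjusted p of 0.0155) and Gbp2b (0.0236). Over all genes to which DESeq2 gave an adjusted p, 0.609% were called upward. The median log2 fold change of 0.40 moved to 0.65 when Snhg11-ASO replicate 1 was left out and to 0.18 when Control-ASO replicate 1 was. Gm4841 had 0.31, 0.39 and 0.30 CPM in Control-ASO and 4.43, 0.93 and 0.87 CPM in Snhg11-ASO, a log2 fold change of 2.64 (standard error 0.73). F830016B08Rik, a neighbour of Iigp1 on chromosome 18, stood at 1.90 (standard error 0.49) and Gbp2b, a neighbour of Gbp2, at 1.42 (standard error 0.38). Of the other GBPs on chromosome 5, the cluster of Gbp4 and Gbp6, none had an unadjusted p under 0.05. Their log2 fold changes were -0.19 (standard error 0.77) for Gbp8, 0.38 (0.29) for Gbp9, 0.35 (0.62) for Gbp10 and -0.12 (0.49) for Gbp11. Gbp8, Gbp10 and Gbp11 were scarce, reaching no more than 0.386, 0.653 and 1.19 CPM in any sample. For these, the absence of a call does not show an absence of change. Of the 50-base windows of Gbp10, Tgtp1, Tgtp2, 9930111J21Rik1, Gvin1 and Gm4070, more than 80% occur in another gene, so their counts are uncertain.

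The ligand of the pathway was not detected. Ifng, the gene for interferon-gamma, had 0 counts in all 6 samples, which allows up to 3 counts, or 0.0682 to 0.104 CPM, per library. Ifnb1, which encodes interferon-beta, had 1 count in a single Control-ASO sample. The subunits of the interferon-gamma receptor had log2 fold changes near 0, at 0.02 (standard error 0.14) for Ifngr1 and 0.02 (standard error 0.21) for Ifngr2. In the list of receptors, kinases and transcription factors, 5 of 15 genes tested had an unadjusted p under 0.05, all upward. This stands beside 3.68% of all genes upward. In this list 0 genes had an adjusted p under 0.05 (median log2 fold change 0.24). Leaving out replicate 1 of either group lowered the 5 to 2. The share of all genes upward was then 4.41% for Snhg11-ASO and 1.77% for Control-ASO. The 5 genes comprised Socs3, a feedback inhibitor, Stat2, Irf1, Irf9 and the kinase gene Jak2. Irf1, whose product drives the GTPase genes, had 6.93, 8.86 and 10.4 CPM in Control-ASO and 33.0, 12.4 and 10.7 CPM in Snhg11-ASO. Replicate 1 was also far above the other Snhg11-ASO samples for Socs3, at 80.7 CPM against 6.53 and 6.55. Stat2 had a log2 fold change of 1.11 (standard error 0.36), Irf9 of 0.81 (0.33), Jak2 of 0.32 (0.13) and Jak1 of 0.13 (0.15).

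The medians of the other lists of interferon targets were also above 0. The counts at an unadjusted p under 0.05 in these lists stand beside 3.68% of all genes upward. Among 19 genes of antigen presentation and other interferon-gamma targets, 9 had an unadjusted p under 0.05, all upward, with a median of 0.72. Tap1 (1.18, standard error 0.29), the peptide transporter gene, Nlrc5 (1.11, 0.26), the activator of MHC class I genes, and the immunoproteasome gene Psmb8 (1.01, 0.30) had the largest log2 fold changes among these, while B2m was at 0.72 (0.35), Cxcl10 at 0.95 (0.42) and Ciita at 0.35 (0.34). Cxcl9, a chemokine gene, had 4, 0 and 5 counts in Control-ASO and 64, 4 and 10 counts in Snhg11-ASO and was too scarce to test. All 25 type I interferon-stimulated genes had upward fold changes with a median of 1.04, and 10 had an unadjusted p under 0.05, led by Rsad2 (1.63, standard error 0.41), Isg15 (1.48, 0.48) and Xaf1 (1.23, 0.42). That median was 0.60 without Control-ASO replicate 1. With the replicate number as a block, 23 of these 25 reached an unadjusted p under 0.05, against 3.99% of all genes upward in that fit, and the GTPase members stayed at 8. Of 21 autophagy and inflammasome genes whose products work with the GTPases, 6 had an unadjusted p under 0.05, all upward, with a median of 0.11. Leaving out replicate 1 lowered this count to 4 for Snhg11-ASO and to 3 for Control-ASO, beside 4.41% and 1.77% of all genes upward. Lgals3, for a lectin that marks damaged vacuoles, stood at 2.10 (standard error 0.47), the caspase-11 gene Casp4 at 1.12 (0.40) and Trim21 at 0.83 (0.33). Of these 3 lists, 0 genes had an adjusted p under 0.05 in edgeR, and DESeq2 called 3, 3 and 2 genes. Over all genes to which DESeq2 gave an adjusted p, 0.609% were called upward.

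**Figure D4:**
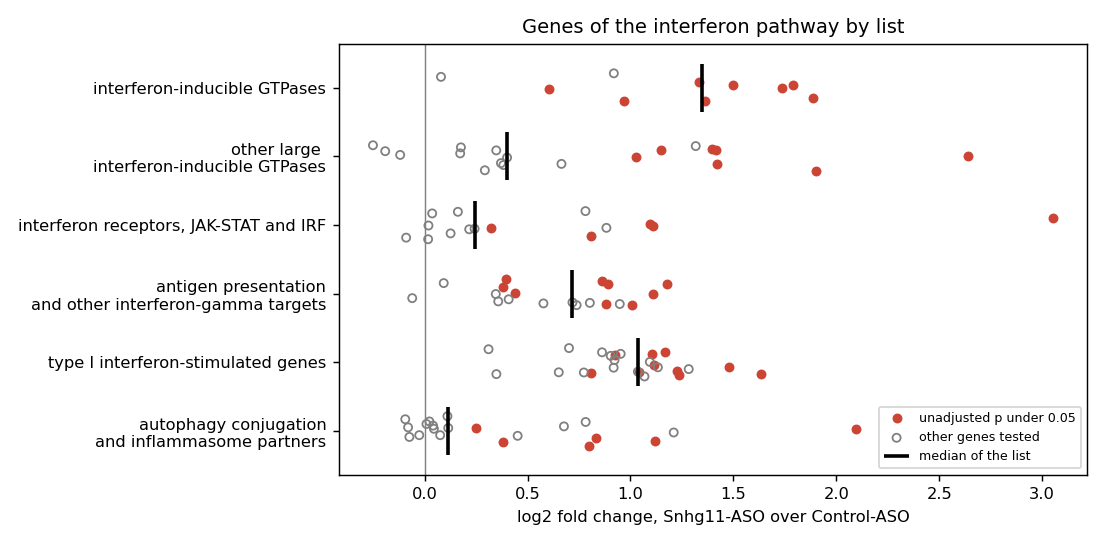
Log2 fold change of Snhg11-ASO over Control-ASO for each gene tested in 6 lists, filled red at an unadjusted p under 0.05 in edgeR and open otherwise, with the list's median as a black bar. The 10 GTPase members have a median of 1.35, the type I interferon-stimulated genes 1.04, and the autophagy and inflammasome genes 0.11.

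Markers of other cell types were read beside the GTPase genes. The summed level of the 14 microglia markers was 364 to 758 CPM in Control-ASO and 279 to 844 CPM in Snhg11-ASO, and 0 of the 14 had an unadjusted p under 0.05. The sum was lowest in Snhg11-ASO replicate 1, the sample in which 6 GTPase genes were highest. By gene, 10 of the 14 were lowest of all 6 samples there, the complement genes C1qa, C1qb and C1qc were among the 4 that were lowest in Control-ASO replicate 1, and Itgam was highest of all in Snhg11-ASO replicate 1, at 18.3 CPM. The microglial receptor gene P2ry12, singled out after its values were seen, had 23.8, 51.99 and 36.8 CPM in Control-ASO and 5.46, 40.2 and 48.5 CPM in Snhg11-ASO. Of 16 blood leukocyte markers, 10 were too scarce to test, with no more than 13 counts in any sample, Cd3e of T cells among them at 0 to 5 counts. The 6 tested summed to 3.06 to 6.05 CPM in Control-ASO and to 47.4, 8.35 and 6.44 CPM in Snhg11-ASO. In replicate 1 most of that sum came from S100a8 and S100a9, neutrophil genes also named after their values were seen, at 22.3 and 16.0 CPM. Ly6c2 had a log2 fold change of 2.14 (standard error 0.37), Plac8 of 1.27 (0.49) and Lck of 0.64 (0.24), each with an unadjusted p under 0.05. These 3 calls fell to 2 without Snhg11-ASO replicate 1, to 1 without Control-ASO replicate 1 and to 1 with the replicate block, and the list's median of 1.71 fell to 0.50 when Snhg11-ASO replicate 1 was left out. Summed levels ranged from 4856 to 7251 CPM and from 4443 to 7425 CPM for 10 astrocyte markers, and from 160 to 198 CPM and from 170 to 200 CPM for 10 endothelial markers, in Control-ASO and Snhg11-ASO. Of the astrocyte markers, Vim (1.12, standard error 0.41) and Sox9 (0.72, 0.22) had an unadjusted p under 0.05. Gfap did not, with 417, 1984 and 1398 CPM in Control-ASO, against 948, 2375 and 2486 CPM after Snhg11-ASO. Estimates were upward for 6 of the 10 astrocyte markers and downward for 4, and the middle of that list lay at 0.06. Slc1a2 was lower in every Snhg11-ASO sample than in any control, at 2494, 3162 and 3006 CPM against 3234, 3526 and 3535 CPM. By gene, 6 of the 10 were lowest of all samples in Snhg11-ASO replicate 1. Upward calls among the astrocyte markers numbered 4 with Snhg11-ASO replicate 1 left out and 4 with the replicate block, where Gfap had an unadjusted p of 0.00878 in edgeR. The block also gave 2 upward calls among the microglia markers, C1qa and C1qc, although the median of that list with the block was -0.17. Without the block, 7 microglia markers had upward and 7 downward estimates. Their median of 0.01 rose to 0.40 without Snhg11-ASO replicate 1, with 1 upward call, and was -0.14 without Control-ASO replicate 1. Choroid plexus markers were uneven within both groups, with a sum of 40.6 to 1942 and 72.8 to 1321 CPM, and Ttr alone ranged from 12.9 to 1752 and from 37.7 to 1192 CPM. Hippocampal neuron markers were present in all samples, at 2055 to 2427 CPM in sum, and of these only Wfs1 had an unadjusted p under 0.05, at 0.40 (0.15). The part of these markers in the GTPase result was not tested.

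**Figure D5:**
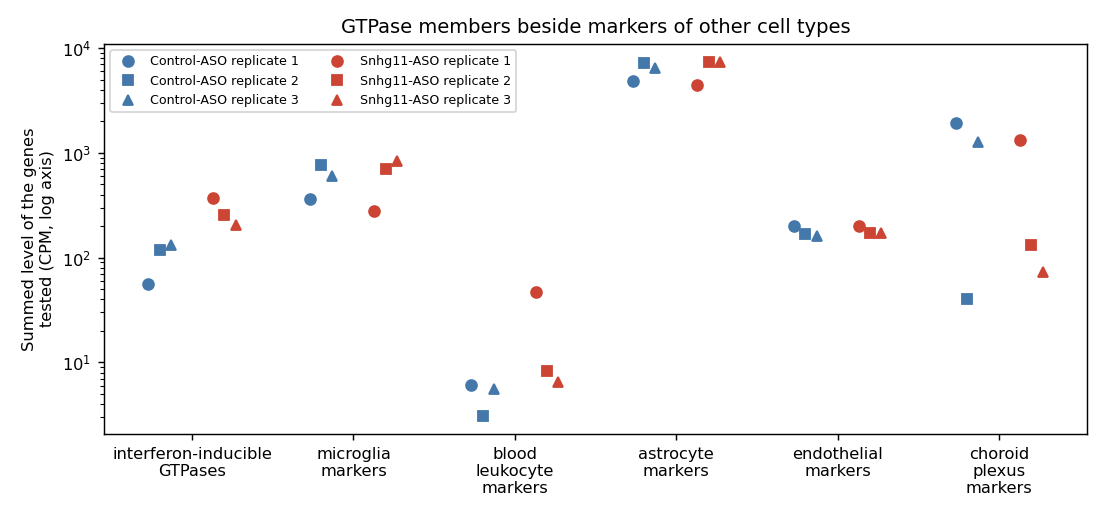
Summed CPM on a log axis of the GTPase members and of 5 marker lists in each sample (blue Control-ASO, red Snhg11-ASO, marker shape the replicate). The GTPase sum is 55.6 to 131 CPM in Control-ASO and 206 to 374 CPM in Snhg11-ASO, while the microglia, astrocyte, endothelial and choroid plexus sums overlap between the groups. The blood leukocyte sum does not overlap, with 6.05 CPM in the highest Control-ASO and 6.44 CPM in the lowest Snhg11-ASO sample.

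The genes whose profile over the 6 samples was closest to the mean of the GTPase members, among genes outside all lists, were Ghsr, Dtx3l, Zc3hav1, Trim25 and Tmem106a. Closeness was the root mean square difference of centred log2 CPM, which was 0.13 for Ghsr, 0.15 for Dtx3l and Zc3hav1, 0.16 for Trim25 and 0.17 for Tmem106a. The members themselves lay 0.21 (Gbp7) to 0.86 (Gbp4) from their own mean. Dtx3l, for a ubiquitin ligase, had 9.08, 17.4 and 19.3 CPM in Control-ASO and 32.2, 34.2 and 28.6 CPM in Snhg11-ASO. Zc3hav1 and Trim25 encode antiviral RNA-binding and ubiquitin ligase proteins and had log2 fold changes of 0.97 (standard error 0.28) and 1.01 (0.24). Ghsr, the ghrelin receptor gene, was scarce, at 0.27 to 1.34 CPM.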

How the data were processed

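RNA-seq was performed by the authors on ribo-depleted total RNA of 6 samples with a strand-specific kit, and paired reads of 50 bases were aligned with STAR 2.5.2a to GRCm38 (mm10). The authors deposited raw counts of read pairs per gene for both strands and for each strand. The paper's methods name Rsubread, while the files have the layout of STAR's gene counts. Lines that name no gene held 43.5% to 51.4% of pairs and were left out. Reverse-strand counts were used, which were 96.2% to 96.8% of the stranded counts. Symbols came from GENCODE M21, which matched 55141 of 55401 identifiers.

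Genes passed filterByExpr (minimum count 10), which left 19969, and were fitted with TMM factors (0.982 to 1.02) and edgeR 4.0.16 quasi-likelihood tests in R 4.3.3, with Benjamini-Hochberg adjustment at 0.05 over all genes tested. DESeq2 1.42.0 and limma 3.58.1 were alternatives. Standard errors are the fold change over the square root of F, and log2 CPM used a prior count of 2. Scripts were tested on simulated counts. Intervals of 0 counts cover counting error only.

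Deviations from the group means correlated at 0.297, 0.179 and 0.103 in same-numbered samples. Control-ASO replicate 2 with Snhg11-ASO replicate 3 was at 0.188, above the last 2 of these, and the other pairs of unlike numbers were negative. The data thus give only weak grounds for a pairing by number. A fit with the number as a block was set beside the others. The values reported come from fits without the block unless it is named, and no label states a pairing. The members and lists were chosen with earlier results of these data known. Named genes are all members, Snhg11, defining genes of each list (Ifng, Ifnb1, Ifngr1, Ifngr2, Jak1, Jak2, Stat2, Irf1, Irf9, Cxcl9, Cxcl10, Ciita, B2m, Gfap, Cd3e and Ttr), the 3 genes of each list with the largest change at an unadjusted p under 0.05, and the 5 closest in profile, and 1 defining gene is not reported here. Other names illustrate counts and were chosen after their values were seen.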

Additional observations from a re-analysis of the deposited data

Results flagged for a closer look

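Counts of Gbp7 on the opposite strand, which entered only the alternative with counts of both strands, were higher in every Snhg11-ASO sample, with 2, 5 and 7 counts in Control-ASO and 9, 18 and 12 counts in Snhg11-ASO, and made up 0.820% of its stranded counts. None of the other 9 members met this condition on the opposite strand. With 3 samples in each group, single outlying samples were not tested for.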

How the results depend on the processing

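The 9 members other than Gbp4 kept an upward fold change in all 23 alternatives (17 planned, 6 added after the data were seen, the latter DESeq2 without each sample). The lowest value was 0.39. Gbp4 turned downward with limma-voom (-0.014), with the replicate block (-0.0066), and without Control-ASO replicate 1 (-0.13, DESeq2 -0.12), Snhg11-ASO replicate 2 (-0.24, DESeq2 -0.24) or Snhg11-ASO replicate 3 (-0.011, DESeq2 -0.0069), while it was 0.41 without Snhg11-ASO replicate 1, and the cause was not tested. The median log2 fold change of the members was 0.88 without replicate 1 of both groups and 0.99 to 1.58 without a single sample. With the replicate block, the median was 1.45 and the block changed no adjusted call of a member. DESeq2 called 5 members and 256 genes of all, and without Control-ASO replicates 1, 2 and 3 in turn 3, 4 and 5 members and 92, 377 and 125 genes, and without Snhg11-ASO replicates 1, 2 and 3 in turn 5, 4 and 5 members and 339, 275 and 213 genes. Fits with limma-voom and sample weights called 7 genes of all, of which 0 were members. In edgeR, leaving out 1 sample gave 0 to 2 genes called (2 without Snhg11-ASO replicate 1) and 5 to 9 members at an unadjusted p under 0.05, with 5 without Snhg11-ASO replicate 2. Members with separated groups numbered 7 with counts of both strands and with plain library totals and 8 to 9 without a sample. The share of all genes with separated groups was not computed for these settings. Groups with a sample left out also separate more easily, so the counts of 8 to 9 do not measure stability. The 3 samples per group limit every test.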
